A study of Xenopus tropicalis with 4 samples.

Results

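The hox genes of Xenopus tropicalis were described for chromatin carrying E2F1 and OTX1 in early embryos. Members were all protein-coding genes whose RefSeq symbol starts with hoxa, hoxb, hoxc or hoxd followed by a number, which gave 36 of 21749 protein-coding genes on the 10 chromosomes. They lie in 4 clusters, with 10 genes in HoxA on chromosome 6, 9 in HoxB on chromosome 10 (11994003 to 12101179), 10 in HoxC on chromosome 2 (145920777 to 146201141) and 7 in HoxD on chromosome 9 (64970180 to 65135965). Coordinates are 1-based on the build xenTr10.

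Binding was mapped by chromatin immunoprecipitation and sequencing (ChIP-seq) in whole embryos at stage 8, a blastula stage. For the group labelled E2F1 Rescue, the injection was of E2F1 mRNA plus an MO, and the antibody was against the HA tag. For the group labelled OTX1 Rescue, OTX1 mRNA and an MO were injected, and the antibody was against the Myc-Tag. The abbreviation MO commonly stands for morpholino, an antisense blocker of translation or splicing, and the labels do not say which gene it was aimed at. Both groups had 2 libraries, with 1 peak list per library. The antibodies read tags, so the maps show the injected protein, and the factor, the antibody and the calling threshold changed together. Nothing says that libraries of a factor came from separate batches of embryos, so their spread may be technical.

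Hox genes encode homeodomain transcription factors that assign identity along the head-to-tail axis. Their order in a cluster mirrors the order of their domains along the body, and genes at the same place of different clusters form a paralogue group, numbered from 1 (hindbrain) to 13 (tail, limb tips and hindgut). All genes of a vertebrate cluster are read in the same direction, with their 5′ ends facing the group 13 side. In frogs, hox transcription becomes prominent during gastrulation, after the stage studied here. E2F1 is a cell cycle factor known for binding promoters. OTX1 is a homeodomain factor of the OTX family, which is known for forming the brain in front of the hox domain.

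The 4 lists held 16770 and 20385 peaks for E2F1 and 27755 and 29098 for OTX1. A region was called reproducible when peaks of both lists of a factor shared at least 1 bp, which gave 13216 E2F1 and 17768 OTX1 regions. The fold of a peak is the authors' ratio of the signal at its summit to the local background, given for each list separately. Folds are given below for list 1 and then list 2. The median peak rested on 15 to 16 fragments at its summit, so small differences in fold are within counting error. A region was assigned to a gene when any base of it lay within 5 kb of either annotated end, and distances are from the region's summit to that end. The gene table has no strand or exons, so introns, exons and UTRs were not told apart.

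With the lists as deposited, E2F1 regions lay near a larger share of hox genes than of genes at large. Of the 36 hox genes, 26 (72.2%) had an E2F1 region within 5 kb, against 44.1% of all protein-coding genes. When the peaks of both lists had to overlap by 50% of each, it was 24 of 36 against 41.1%. With only the peaks of a −log10 q of at least 5, it was 15 of 36 (41.7%) against 35.8%. OTX1 regions lay near 16 of 36 (44.4%), against 22.7% of all genes. Regions of both factors were found near 14 hox genes (38.9%, against 13.8% of all genes). E2F1 alone lay near 12 and OTX1 alone near 2, hoxb2 and hoxb6. Of all 21749 genes, 9593 had E2F1, 4934 had OTX1 and 2995 had both. E2F1 alone was thus the commoner case over all genes as well, and the split is not particular to hox genes. The 8 hox genes with neither factor (22.2%, against 47.0% of all genes) were hoxa13, hoxb4, hoxb5, hoxb9, hoxc5, hoxc6, hoxc8 and hoxd4. These shares are descriptions and were given no test, and neighbouring hox genes can count the same region. Counted once each, 23 E2F1 regions served the 26 genes and 13 OTX1 regions served the 16.

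Both shares fell below those of all genes without the peaks that stood on a high local background. When the 10% of peaks with the highest local background were left out of each list (an alternative added after the data had been seen), 8 of 36 hox genes kept E2F1 against 36.7% of all genes. Only 4 of 36 then kept OTX1 against 19.7% of all genes. Over whole lists, the peaks left out were also taller, with a median of 42 and 47 fragments at the summit for E2F1 against 15 and 15 for the rest. For OTX1 it was 26 and 26 against 15 and 15. Regions of the hox clusters had medians of 23 and 25.5 for E2F1 and 22.5 and 20.5 for OTX1. Whether a region lost in this way is background was not tested.

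**Figure D1:**
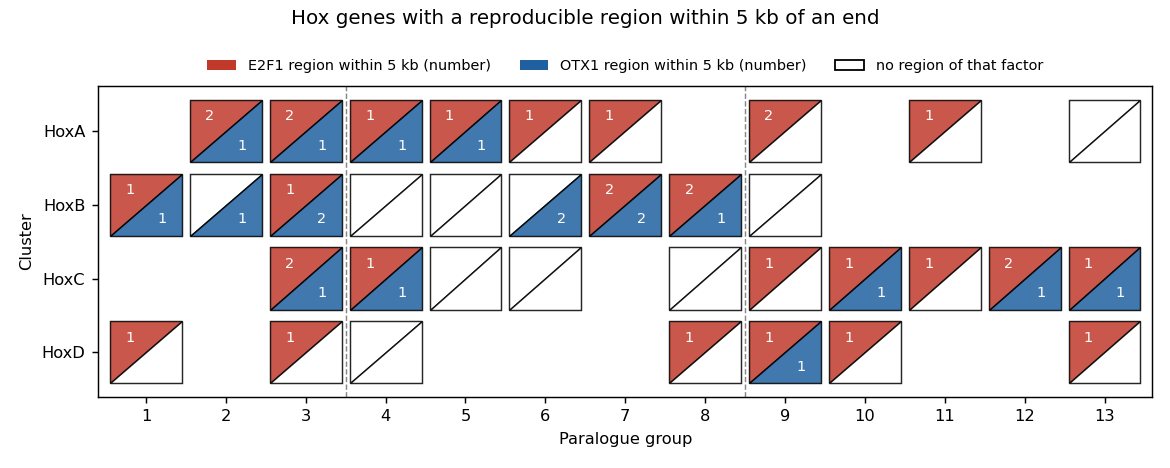
Hox genes by cluster (rows) and paralogue group (columns), with a red upper triangle for a reproducible E2F1 region within 5 kb of a gene end, a blue lower triangle for OTX1, and the number of regions in each. Squares are missing where no gene is drawn. White in both triangles are 8 genes, 6 of them in groups 4 to 8.

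Among anterior genes (paralogue groups 1 to 3), 8 of 9 had an E2F1 region and 6 an OTX1 region, and each had at least 1 of the factors. Of all genes, 44.1% had E2F1, 22.7% had OTX1 and 47.0% had neither. Differences between anterior, central and posterior genes were not tested. In group 1, whose genes pattern the hindbrain and answer early to retinoic acid, hoxb1 and hoxd1 had E2F1. The region beside hoxb1, on its group 13 side, had folds of 6.997 and 7.67, with 27 and 31 fragments at the summit, 1607 bp from the gene (chromosome 10, 12000533 to 12001045). The region of hoxd1, a gene that retinoic acid induces in frog embryos, was weaker, with 3.95 and 3.74 at 1195 bp. Hoxb1 also had OTX1, 1568 bp away, at folds of 6.34 and 5.69.

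In group 2, which shapes the hindbrain and, in mouse, the neural crest of the second pharyngeal arch, the genes differed between clusters. Hoxa2 held both factors inside the gene, with E2F1 at 5.52 and 4.08, 2789 bp from its end, and OTX1 at 3.68 and 3.43, 2751 bp from it. A second E2F1 region lay outside hoxa2, 3067 bp from its other end, at 4.55 and 4.45. Hoxb2 had no reproducible E2F1 region within 5 kb, while OTX1 lay just inside the gene, 226 bp from its end, at 5.24 and 4.04. That OTX1 summit rested on 18 and 11 fragments.

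All 4 genes of group 3 had E2F1. Hoxc3 had a region 375 bp inside its end at 4.35 and 4.78, and a second 2448 bp outside at 4.57 and 4.14, where OTX1 had 5.82 and 5.79. Hoxa3 was counted through the regions inside hoxa2, 2888 bp (E2F1) and 2850 bp (OTX1) away, and through an E2F1 region at its far end beside hoxa7. The region at hoxd3, 337 bp from the end (chromosome 9, 65061433 to 65062105), had 3.81 and 4.09 and is the one counted for hoxd8 as well. Hoxb3, a hindbrain gene, had E2F1 at 3.48 and 5.30, 1590 bp inside its end, with 22 and 43 fragments in lists 1 and 2. RefSeq draws hoxa3, hoxb3 and hoxd3 with spans of 45353, 49663 and 41277 bp that cover 1 or more neighbours, so their far ends lie beside other hox genes. The OTX1 regions of hoxb3 lay near its far end, 1746 bp from it at 3.94 and 3.44, and 5007 bp from it at 4.30 and 5.55, which is nearer to hoxb6.

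Of 15 central genes (groups 4 to 8), 8 had E2F1, 6 had OTX1 and 6 had neither, where the shares of all genes were 44.1%, 22.7% and 47.0%. Central genes were thus near the share of all genes for E2F1 and for neither factor. In group 4, whose genes mark the hindbrain and neck, hoxa4 and hoxc4 had both factors and hoxb4 and hoxd4 had neither. The region beside hoxa4 was the tallest in the clusters, with 37 and 46 fragments and folds of 6.27 and 6.93, 1616 bp from the gene and inside the annotated span of hoxa3 (chromosome 6, 42177902 to 42178701). OTX1 lay at the same place at 5.48 and 5.64. The region also lies within 5 kb of hoxa5, which is needed for the airways in mouse, and the E2F1 and OTX1 regions there are the ones counted for that gene.

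Hoxc4 had its E2F1 region 4891 bp away at 6.56 and 4.48, and its OTX1 region 2239 bp away on the opposite side at 6.15 and 4.55. In groups 5 and 6, E2F1 was limited to 1 of 3 genes each, hoxa5 and hoxa6. The region of hoxa6 is 1 that also serves hoxa3, hoxa7 and hoxa9 (folds of 3.51 and 3.99, 876 bp from hoxa7). In HoxB, hoxb6 had OTX1 272 bp from its end at 4.30 and 5.55, and the region at 3.94 and 3.44 that also serves hoxb3 and hoxb7. Hoxb7 and hoxb8, expressed in the spinal cord, shared a pair of E2F1 regions, at 5.67 and 5.65 and at 4.21 and 4.29. OTX1 lay with the first of these at 4.39 and 4.55, 3694 bp from hoxb7 and 4308 bp from hoxb8. Hoxd8 was counted through the region at hoxd3, 1477 bp away.

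Hoxb4 shows how a gene can be called in each list and still have no reproducible region. It had 1 E2F1 peak within 5 kb in list 1 and 1 in list 2, and these did not overlap. Hoxb5, hoxb6 and hoxb2 had E2F1 peaks in list 2 alone. For hoxc5, hoxc6, hoxc8 and hoxd4 no E2F1 peak of either list lay within 5 kb. Hoxc6 and hoxc8 mark forelimb and thoracic levels of the spinal cord in mouse.

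Posterior genes (groups 9 to 13) had E2F1 in 10 of 12 cases and OTX1 in 4 of 12, against 44.1% and 22.7% of all genes. Hoxc10, a gene of the lumbar spinal cord in mouse, had both factors beside it, on the group 13 side, E2F1 at 5.62 and 4.74 and OTX1 at 4.91 and 3.75, with the E2F1 summit 596 bp away (chromosome 2, 146111431 to 146112122). Hoxc12 had 2 E2F1 regions, 1 with its summit 3 bp from the end at 4.04 and 3.98 and 1 on the other side at 4.17 and 4.47, where OTX1 had 2.97 and 4.37. At hoxd9, E2F1 covered the end at 3.28 and 5.76 (chromosome 9, 65002659 to 65003147) and OTX1 lay just inside it at 4.26 and 5.62. The E2F1 summit there held 18 fragments in list 1 and 37 in list 2.

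All E2F1 regions counted for posterior genes, those above included, had folds under the medians of all E2F1 regions given below. In HoxA, hoxa9 and hoxa11, a gene of the forearm in mouse, were served by 1 region at 4.24 and 4.39 with 33 and 36 fragments. Hoxc11 had 3.40 and 3.18, hoxc13 had 3.44 and 4.07, hoxd10 had 4.03 and 3.80, and hoxd13, needed for digits in mouse, had 3.55 and 4.16. Hoxc13 also had OTX1 4299 bp away at 4.21 and 3.53. Hoxc9 was counted only because the edge of the region of hoxc10 reached within 5 kb, with the summit 5325 bp away. Hoxa13 and hoxb9, a marker of the posterior spinal cord in frogs, had E2F1 peaks in list 2 alone.

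E2F1 regions covered hox gene ends less often than those of genes at large, and lay near them more often. Their summit lay within 1 kb of an end at 7 of 36 hox genes (19.4%), against 34.9% of all genes, and a region covered an end at 3 (hoxc12, hoxd3 and hoxd9; 8.33%, against 30.6%). At 2 kb the order of the shares turned, with 17 hox genes (47.2%) against 38.2%, and at 10 kb 28 hox genes (77.8%) stood against 51.1%. At 20 kb it was 31 against 61.4%. For OTX1 no hox end was covered, against 2.87% of all genes. Within 1 kb it was 5 of 36 (13.9%), against 7.18% of all genes by the summit and 8.16% by the nearest base. At 10 kb it was 23 of 36 (63.9%) against 34.7%, and at 20 kb 29 of 36 against 49.6%. In the clusters, 8 of 30 E2F1 regions (26.7%) had their summit within 1 kb of the end of any protein-coding gene, against 51.4% of all E2F1 regions. For OTX1 it was 6 of 16 (37.5%) against 8.32%.

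**Figure D2:**
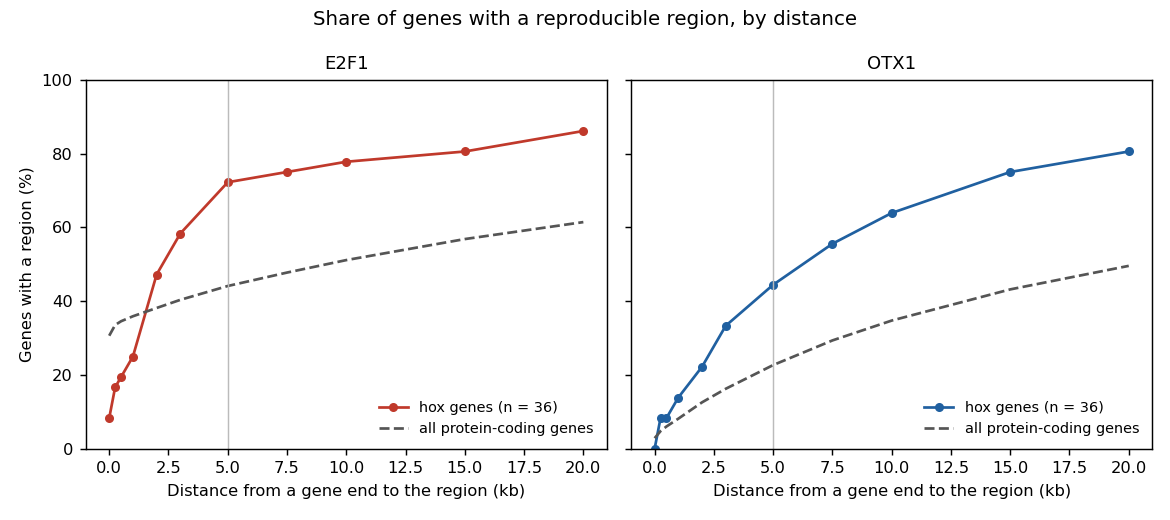
Share of genes (vertical axis, %) with a reproducible region within a given distance of either end (horizontal axis, kb, from the nearest base of the region), for E2F1 (left) and OTX1 (right). The coloured line is the 36 hox genes and the dashed line all 21749 protein-coding genes. For E2F1 the hox line starts at 8.33% against 30.6% and stands at 72.2% against 44.1% at 5 kb, marked by the grey line.

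Along the clusters, with 5 kb added on each side, there were 30 E2F1 and 16 OTX1 regions in 690 kb. That is 4.34 E2F1 and 2.32 OTX1 regions per 100 kb, against 0.911 and 1.23 per 100 kb over the 10 chromosomes. Hox clusters are also dense in genes, with 5.21 hox genes per 100 kb against 1.501 protein-coding genes. Per gene, E2F1 had 0.833 regions in the clusters against 0.607 over the 10 chromosomes, and OTX1 had 0.444 against 0.817.

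The clusters differed in how the factors were spread. HoxA held 8 E2F1 and 3 OTX1 regions, HoxB 5 and 6, HoxC 12 and 6, and HoxD 5 and 1. HoxA was the densest for E2F1 with 7.47 regions per 100 kb, and 9 of its 10 genes had one within 5 kb. HoxB was the densest for OTX1 with 5.12 per 100 kb, and HoxD the sparsest for both with 2.84 and 0.569. With so few regions per cluster, the order of neighbours such as HoxB (4.27) and HoxC (4.13) in E2F1 regions per 100 kb says little.

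Each cluster had a stretch free of reproducible regions. Over all chromosomes used there were 0.911 E2F1 and 1.23 OTX1 regions per 100 kb, which is sparser than in the clusters together. The stretches were not set beside gaps elsewhere in the genome, so none is shown to be unusually long. In HoxC no region of either factor lay in 78.1 kb (146033350 to 146111430) that hold hoxc5, hoxc6, hoxc8, hoxc9 and hoxc10. In HoxB no region of either factor lay in 38.6 kb that hold hoxb4, hoxb5 and hoxb6, and E2F1 was missing from 54.1 kb there. In HoxD no region of either factor lay in the 73.9 kb from the region at hoxd3 to the outer end of hoxd1, which hold hoxd4 and hoxd1. Stretches were cut at the outermost hox base of a cluster, as here. OTX1 was missing from 133 kb of HoxD, from the region at hoxd9 to the same end. The stretch without OTX1 goes on beyond the cluster, as the OTX1 summit nearest to hoxd1 lay 39207 bp from it. In HoxA the longest stretch free of both was 18.1 kb, which holds hoxa4, and OTX1 was missing from 38.8 kb that hold hoxa5, hoxa6, hoxa7, hoxa9 and hoxa11.

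**Figure D3:**
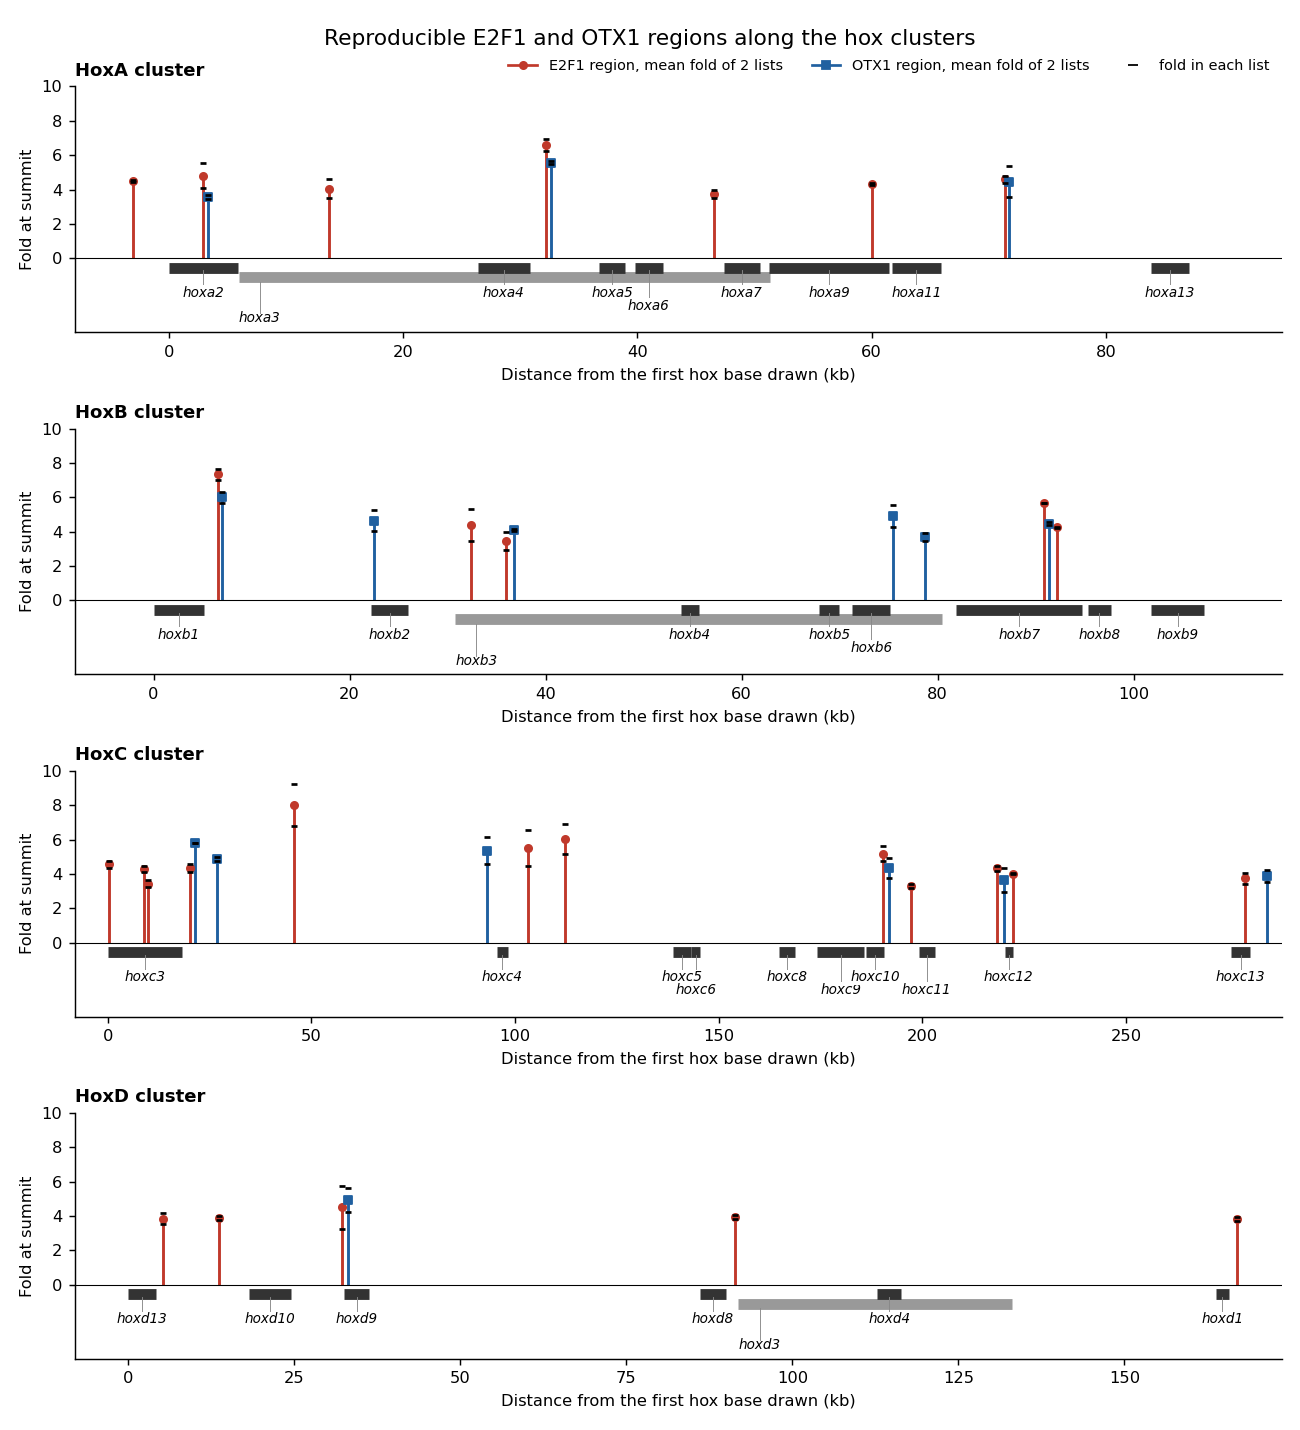
The 4 clusters to scale, with distance from the first hox base drawn (horizontal axis, kb), hox genes as bars below the line (grey for hoxa3, hoxb3 and hoxd3, whose annotated spans cover neighbours) and reproducible regions as stems whose height is the mean fold of both lists, with a black dash for each list. Stems of shared pairs are set slightly apart. The E2F1 (red circles) and OTX1 regions (blue squares) leave stretches such as the 78.1 kb of HoxC with none.

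In list 1 and by the mean of both lists, the highest E2F1 fold in the clusters was in the stretch between hoxc3 and hoxc4. That region lay 27364 bp from hoxc3 (chromosome 2, 145966273 to 145966757) with folds of 9.23 and 6.80 and 31 and 20 fragments. In list 2 the region beside hoxb1 was the highest, at 7.67. On the other side of hoxc4, towards hoxc5, a region lay 14063 bp from hoxc4 (146032699 to 146033349) at 5.16 and 6.90. By the mean of both lists, the highest E2F1 region was the one beside hoxa4 in HoxA, beside hoxb1 in HoxB and at hoxd9 in HoxD. The region at hoxd9 led only through list 2 (5.76), as its fold in list 1 (3.28) was the lowest in HoxD. The highest OTX1 regions lay at the same 3 places, with 6.34 and 5.69 beside hoxb1, and in HoxC 2429 bp from hoxc3. The OTX1 region of HoxD was its only one.

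Summits inside and outside annotated hox genes were equal in number. In all, 15 E2F1 regions had their summit inside an annotated hox gene and 15 outside, and for OTX1 it was 8 and 8. Some count as inside only through the long spans of hoxa3 and hoxb3, such as those beside hoxa4 and the OTX1 region beside hoxb6. The counts were not set beside a share over all regions. The nearest hox end was the one facing group 13, the 5′ end by the known orientation of the clusters, for 18 of 30 E2F1 and 12 of 16 OTX1 regions. The nearest end can be the far end of a long span, as for an OTX1 region of hoxb3. Without strand, no share over all regions stands beside these counts, and a preference for 5′ ends was not tested. The median distance to the nearest hox end was 1696 bp for E2F1 and 1993 bp for OTX1, and 7 and 3 regions lay farther than 5 kb from any hox end.

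E2F1 and OTX1 regions coincided at 10 places in the clusters. Such overlap was found for 10 of 16 OTX1 regions (62.5%), against 17.0% of all OTX1 regions, and for 10 of 30 E2F1 regions (33.3%), against 22.6% of all E2F1 regions. The number depended on the settings, with 6 shared places among 12 OTX1 regions at a reciprocal overlap of 50%, and 5 among 8 with equal numbers of top peaks. It was 4 among 10 with a −log10 q of at least 5, and 3 among 5 without the peaks of highest local background. The counts under these other settings were not set beside a share of all OTX1 regions. With the lists as deposited, the median distance between summits was 40 bp, with 9 of the 10 pairs within 100 bp, while all 3021 overlapping pairs had a median of 91 bp. The pair inside hoxb3 was the exception, at 220 bp. The factors were precipitated from separate embryos, so an overlap does not show both on the same DNA.

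The shared places were spread over all 4 clusters. They were inside hoxa2, hoxb3 and hoxb7, beside hoxb1, hoxc3, hoxc10, hoxc12 and hoxa4, in the stretch between hoxa11 and hoxa13, and at hoxd9. Counted by genes, 12 of 36 hox genes (33.3%) had a shared region within 5 kb, against 7.07% of all genes. The place between hoxa11 and hoxa13 (42217421 to 42217762) lay 5732 bp from hoxa11, at E2F1 folds of 4.40 and 4.78 and OTX1 folds of 3.55 and 5.35. It was thus counted for no hox gene, but it lies within 1 kb of a protein-coding gene known by locus number only. The place inside hoxb3 had E2F1 at 3.96 and 2.93 and OTX1 at 4.04 and 4.14, and was also beyond 5 kb.

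**Figure D4:**
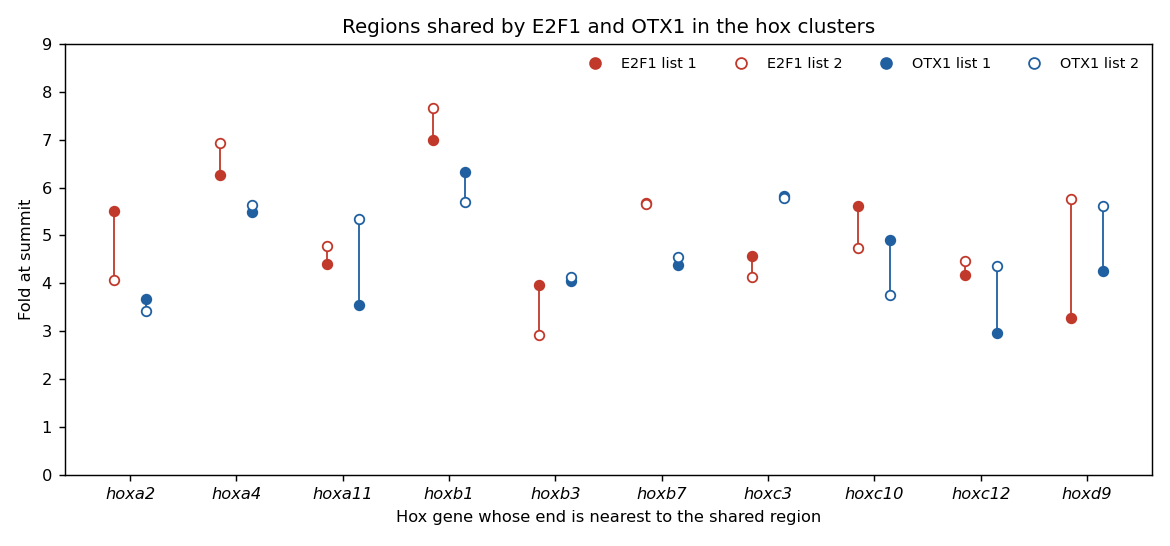
Fold at the summit (vertical axis) in each of the 4 lists at the 10 places where E2F1 (red) and OTX1 (blue) regions overlap, named by the hox gene with the nearest end, with filled points for list 1 and open points for list 2. The lists differ most at hoxd9 for E2F1 (3.28 and 5.76) and in the HoxA place nearest to hoxa11 for OTX1 (3.55 and 5.35). Folds of the factors come from separately called lists and are not on a common scale.

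Regions in the hox clusters were low in fold although many fragments piled up on them. The median fold of the 30 E2F1 regions was 4.19 and 4.46 in lists 1 and 2, against 5.85 and 6.23 for all E2F1 regions, and 4 of 30 were above that median in each list. Yet the median summit held 23 and 25.5 fragments, against 18 and 21. The local background was 4.74 and 4.89 fragments, against 2.25 and 2.53, and 29 and 28 of the 30 regions were above the median of all. OTX1 regions had a median fold of 4.34 and 4.55 against 5.28 and 5.80, with 22.5 and 20.5 fragments against 18 and 18. Their local background was 4.76 and 4.13 against 2.58 and 2.23.

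In both lists of its factor, the background was above the 90th percentile of all peaks for 17 of 30 E2F1 regions (56.7%), against 10.9% of all E2F1 regions, and for 11 of 16 OTX1 regions (68.8%), against 11.1%. It was highest at hoxa9 for E2F1 (7.02 and 7.43) and beside hoxc13 for OTX1 (7.55 and 7.22). Among the lowest, the shared place beside hoxc3 had an E2F1 background of 2.06 and 2.14 and an OTX1 background of 1.92 and 1.76, and the place beside hoxb1 had 3.002 and 3.17 for E2F1 and 3.10 and 2.69 for OTX1. The sources used here do not state whether the peak caller had a control library. Without one, the local background is read from the precipitated library itself. The part of the raised background in the counts of hox genes was not tested beyond leaving such peaks out.

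**Figure D5:**
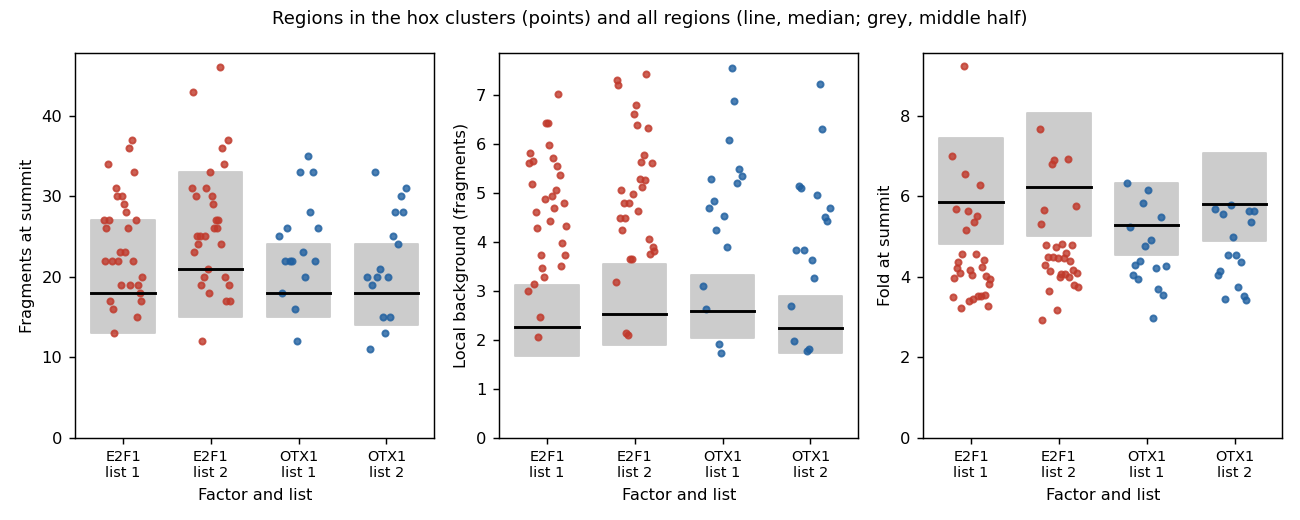
Fragments at the summit (left), local background (middle) and fold (right) of each region in the hox clusters, 30 for E2F1 (red) and 16 for OTX1 (blue), in each of the 4 lists. The black line is the median of all reproducible regions of that factor and the grey box spans their quartiles. In the middle panel 29 and 28 of 30 E2F1 points lie above the line, and in the right panel 4 and 4.

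The separate lists gave more hox genes for E2F1 on average, within their spread. A peak lay within 5 kb of 26 and 32 hox genes in the E2F1 lists (48.1% and 53.2% of all genes) and of 21 and 27 in the OTX1 lists (33.7% and 33.4%). The means were 29.0 ± 4.24 and 24.0 ± 4.24 hox genes (SD, n = 2 each). The ranges overlap, and the difference of 5.0 genes had a two-sided exact permutation p of 0.667, where the smallest p that 2 against 2 lists allow is 0.333. Every gene with an E2F1 peak in list 1 had one in list 2 as well, while list 2 added 6 genes. In the clusters list 1 held 34 E2F1 peaks, of which 31 (91.2%) were part of a reproducible region, and list 2 held 46, of which 30 (65.2%) were, against 79.4% and 65.2% of all E2F1 peaks of those lists. For OTX1 it was 16 of 27 (59.3%) and 16 of 31 (51.6%), against 64.5% and 61.9% of all peaks of those lists.

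Several OTX1 peaks near hox genes were found in 1 list alone. In list 2 alone it had a peak within 5 kb of hoxa9, hoxb5, hoxc8, hoxc9, hoxd1, hoxd3 and hoxd8, and in list 1 alone of hoxc5 and hoxd4. Hoxa11, hoxd10 and hoxd13 had OTX1 peaks within 5 kb in both lists but no reproducible region there. The OTX1 peaks of the clusters that were in no reproducible region had a median fold of 3.84 in list 1 and 4.22 in list 2, and the highest was 5.15.

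The first 3 named protein-coding genes on each side of each cluster lay 6709 to 547412 bp from it, so many are not close to hox genes. Of these, 17 of 24 (70.8%) had E2F1 within 5 kb. For OTX1 it was 5 (20.8%), and the shares of all genes were 44.1% for E2F1 and 22.7% for OTX1. With the E2F1 summit within 1 kb of an end it was 15 of 24, where hox genes had 7 of 36 and all genes 34.9%. Cbx1 and cbx3, of the heterochromatin protein family, had 14.1 and 16.1 and 9.85 and 8.83. Hnrnpa3, for an RNA-binding protein, had 12.4 and 12.7, and lnpk beside HoxD had 8.19 and 10.4, with the summit 20 bp from its end. The even-skipped relatives evx1 and evx2, which adjoin group 13 of HoxA and HoxD, had neither factor within 5 kb. The 16 E2F1 regions of these neighbours stood on a median background of 2.55 and 2.95, against 4.88 and 4.98 for the 23 regions of the hox genes.

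Partners and regulators of hox genes were examined with the same window. Of 8 genes for hox cofactors, homeodomain proteins that bind DNA together with Hox proteins, 6 had E2F1 and 4 had OTX1. The shares of all genes were 44.1% for E2F1 and 22.7% for OTX1. Pknox1 (15.9 and 16.9) and pbx3 (12.7 and 13.5) had higher folds than any region in the clusters. Meis3, a hindbrain factor in frogs, had both factors, E2F1 at 6.95 and 4.37 and OTX1 at 5.39 and 5.10, with summits 1921 and 1918 bp from the gene. Meis1 had OTX1 alone at 5.04 and 5.14.

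Among 8 genes of the ParaHox family and the evx genes, the closest relatives of hox genes, 2 had E2F1 and 2 had OTX1. Of all genes, 44.1% had E2F1 and 22.7% had OTX1, so these relatives were below that share for E2F1 and near it for OTX1. Cdx4, an activator of hox genes in the tail bud, had E2F1 at 10.3 and 7.90, and cdx2 had both factors, at 4.46 and 3.96 for E2F1 and 4.23 and 4.83 for OTX1. Of 11 retinoic acid genes (supply, breakdown and reception), 7 (63.6%) had E2F1 and 3 (27.3%) had OTX1, against 44.1% and 22.7% of all genes. Those 3 were the degrading enzymes cyp26a1, cyp26b1 and cyp26c1, each with both factors. Their OTX1 folds were 5.0 and 6.58, 7.60 and 8.94, and 5.87 and 7.96.

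Of 18 chromatin regulators known for acting on hox clusters, 15 (83.3%) had E2F1 within 5 kb and 7 (38.9%) had OTX1. The shares of all genes were 44.1% and 22.7%. An E2F1 summit lay within 1 kb of an end at 14 of the 18, against 34.9% of all genes. Suz12 (12.2 and 12.9), eed (10.46 and 13.2) and ezh2 (7.06 and 7.19), subunits of the Polycomb repressive complex that methylates histone H3, all had E2F1. Kmt2b, an opposing histone methyltransferase, had 11.6 and 13.7, and ctcf, which divides clusters into domains in mouse, had 7.56 and 8.15. Pcgf2, ezh1 and kdm6b had neither factor.

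Other clustered homeobox genes, those of the ventx and the mix, bix and sia groups, were set beside the hox genes. E2F1 lay within 5 kb of 4 of 6 ventx genes and of 5 of 7 mix, bix and sia genes. OTX1 lay within 5 kb of 4 of 6 and 5 of 7, where the shares of all genes were 44.1% for E2F1 and 22.7% for OTX1. The median folds of both groups were higher than those of the hox genes. For OTX1 they were 4.68 and 5.27 over the 7 regions of the ventx genes and 6.66 and 8.66 over the 6 of mix, bix and sia. The 13 OTX1 regions of the hox genes had 4.39 and 4.55. For E2F1 the medians were 6.99 and 6.44 (ventx), 6.25 and 7.21 (mix, bix and sia), and 4.21 and 4.39 (hox). The local background of the ventx regions was at a median percentile of 87.8 and 87.9 for E2F1 and 95.2 and 95.1 for OTX1, against 93.6 and 92.2 and 95.6 and 96.6 for the hox genes. For the mix, bix and sia regions it was at 71.8 and 76.0 for E2F1 and 47.2 and 51.4 for OTX1, and for the ParaHox and evx regions at 94.9 and 94.2 and at 94.1 and 92.1. These lists are small and the differences were not tested.

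The clusters also hold microRNA genes. The E2F1 region inside hoxa9 ended 447 bp from mir196b, of a microRNA family that targets hox transcripts such as that of hoxb8 in mouse. An E2F1 region lay 2971 bp from mir10c beside hoxc4, and 5972 bp from mir196a beside hoxc10. The genes mir10a in HoxB and mir10b in HoxD had no E2F1 region within 19866 and 20822 bp. No OTX1 region lay within 5 kb of any of these microRNA genes, the closest being 6330 bp from mir196a. Within 5 kb, 44.1% of all protein-coding genes had E2F1 and 22.7% had OTX1. No share of all microRNA genes was worked out, so with so few genes the lack of OTX1 says little.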

How the data were processed

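ChIP-seq peak lists of 2 E2F1 and 2 OTX1 libraries at stage 8 were used. The submitters' processing notes name MACS2 2.2.7.1, Bowtie2 2.4.5, deepTools and fastp, with no role or order. The lists deposited by the authors hold, per peak, a score, a fold ratio of summit over local background, −log10 p-values and −log10 q-values, and the summit offset, each within 1 library. The largest q was 0.0492 and 0.0470 for E2F1 and 0.00999 and 0.00977 for OTX1. Read totals are not in the lists. Whole fragment counts at the summit and the local background were solved from the deposited fold and −log10 p, with a misfit of at most 4.56e-05.

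Gene positions came from the RefSeq table of UCB_Xtro_10.0, used with the lists named for xenTr10. Peaks were joined in Python 3.11.15 with pandas 2.3.3 and numpy 2.4.6 (exact tests by enumeration), and joining, assignment and the fragment solution were tested on simulated data. All hox genes with a region within 5 kb, the highest regions of each cluster, the shared regions, the genes without a region and the lists of neighbours, cofactors, relatives and regulators were to be named. Members and lists were chosen with earlier results of these data known, so counts are set beside all genes and no set test was made. The exact permutation test compared counts per list. No sequence is shown, since none was read here. Windows, overlap, q, list length, local background and each list alone were varied. A hox gene is counted in the totals but is not reported by name or drawn in the maps here.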

Additional observations from a re-analysis of the deposited data

How the results depend on the processing

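With a −log10 q of at least 5, E2F1 lay within 5 kb of 15 hox genes (35.8% of all genes), and the clusters held 17 E2F1 regions, 10 OTX1 regions and 4 shared ones. With equal numbers of top peaks the clusters held 8 OTX1 regions and 5 shared ones. With a reciprocal overlap of 50% the shared regions were 6. Without peaks in the highest 10% of local background, chosen after seeing the data, E2F1 lay near 8 and OTX1 near 4 hox genes, with 9 E2F1, 5 OTX1 and 3 shared regions in the clusters. With a window of 1 kb from the region's edge, 9 hox genes had E2F1 (35.9% of all genes) and 5 had OTX1 (8.16%).

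In single lists (leaving out the other replicate), hox genes numbered 26 to 32 for E2F1 and 21 to 27 for OTX1, and peaks in the clusters 34 to 46 and 27 to 31. The difference between the factors in hox genes per list was 2.0 with a −log10 q of at least 5 (exact permutation p = 1.0) and 11.5 with equal numbers of top peaks (exact permutation p = 0.333). Leaving out 1 list at a time it ran from 2.0 to 8.0. With the replicate number as a block it was 5.0 (exact sign-flip p = 0.50, the smallest that 2 pairs allow). The labels do not say that numbers pair the lists, and 2 pairs are too few to check it. Hoxc3 was the only one of the 26 genes to hold E2F1 under all 10 alternatives, and none of the 16 held OTX1 under all. The window of 1 kb drops any gene whose regions lie farther away, and a wider window can drop none. The tally is thus partly set by distance. For hoxb1 (both factors) and for OTX1 at hoxc3, the window of 1 kb was the only alternative that lost the call. Median summits of 15 to 16 fragments limit what can be said of the order of weak regions.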
